A study of Mus musculus with 9 samples.

Results

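The 10 genes described here encode brakes on the cell cycle together with the atypical E2F repressors: Cdkn1a, Cdkn1b, Cdkn1c, Cdkn2b, Rb1, E2f7, E2f8, Btg2, Gas1 and Plagl1. They were chosen by symbol, as every probe set that the platform annotation assigns to a single one of these genes, which gave 16 of 28898 probe sets with 1 symbol and 10 of 17097 genes. Each gene is represented by its brightest probe set over the 9 arrays, with any other probe set beside it. Expression was measured in basal cells of tail interfollicular epidermis from CD1 mice, on 9 arrays in 3 groups of 3, at day 4 after a 3 mm punch wound. Leading edge (LE) cells came from a 4 mm punch around the wound and were sorted as positive for α5 integrin. Proliferative hub cells came from a 6 mm punch and lacked surface α5 integrin. Control cells were taken at a distance from the wound, and no gate on α5 integrin is given for them. The sort of all 3 groups kept cells with α6 integrin, found on the basal layer, and removed cells with CD34, found on hair follicle bulge cells. Each array was made from 300 cells. The study's methods give a pool of 5 CD1 mice in a sentence on duplicate samples, while each group here has 3 arrays. The gate on α5 integrin and the position in the wound cannot be told apart. Replicates are biological according to the labels and technical according to the study's methods, so p-values reflect only the scatter of these samples, which may be technical.

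Progression from G1 into S phase is driven by cyclin-dependent kinases (CDKs), which phosphorylate the retinoblastoma protein and free E2F transcription factors to switch on genes for DNA replication. CDK inhibitors hold this step back, and the atypical E2Fs, which bind DNA without a DP partner, repress E2F target genes later in the cycle. Other brakes act on mRNA stability, on signalling at the cell surface or as transcription factors, and in the epidermis leaving the cycle accompanies differentiation.

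The sort and the labelled cell type were checked first. Signal of Itga5, the gene of α5 integrin, averaged 9.11 at the LE, 6.92 in the hub and 6.40 in control skin on the log2 scale, and as a gene used in the gate it is no finding. The basal keratins Krt5 and Krt14 averaged between 13.28 and 13.32 in all 3 groups. Itga6, whose protein was used in the sort, averaged 12.27 at the LE, 11.80 in the hub and 11.58 in control skin. Itgb4, another basal marker, averaged 12.57, 12.19 and 12.23 in the same order. Both Itga6 and Itgb4 were called higher at the LE against hub and control, while the basal markers Trp63 and Col17a1 passed in no comparison. The 23 nonspecific background probe sets had their median at 4.66 and their 95th percentile at 7.40, so genes near or below these values are poorly measured. Array medians lay between 6.47 and 6.53. Libraries of the LE stood apart in some markers of other cells, on all LE arrays for some lists and on only part of them for others. The summed signal of 9 myeloid markers was 10.36, 9.34 and 10.04 in LE replicates 1 to 3, against 9.31 to 9.36 in the hub and 9.28 to 9.32 in control skin (log2). Summed endothelial markers (7 genes) reached 10.85 in LE replicate 1, against 9.09 and 9.22 in the other LE arrays, 9.25 to 9.91 in the hub and 8.79 to 9.14 in control skin. Summed suprabasal markers (7 genes) ran the other way, at 13.41 to 13.90 at the LE, 14.52 to 14.63 in the hub and 14.41 to 14.53 in control skin. Krt1, Krt10 and Krtdap were called lower at the LE against both hub and control. Ivl was called higher at the LE than in control skin (0.57, limma adjusted p = 0.0161), and Lor, Flg and Sbsn passed in no comparison. Summed Langerhans cell markers (5 genes) were higher on all LE arrays, at 10.45 to 11.04, against 9.67 to 9.96 in the hub and 10.12 to 10.29 in control skin. H2-Ab1 was called higher at the LE against both groups, and the defining marker Cd207 stood at 5.22 to 5.31 in the group means. Epcam, the brightest of the list, averaged 9.70 at the LE, 8.66 in the hub and 9.47 in control skin. It was called higher at the LE than in the hub and lower in the hub than in control skin. Summed fibroblast markers (8 genes) were higher on every wound array, at 11.63 to 12.01 at the LE and 11.43 to 11.74 in the hub, against 10.58 to 11.00 in control skin. Within that list, Col1a2, Lum and Pdgfra had group means of 4.67 to 5.00, near the background median, while Fbln1 averaged 11.15 at the LE, 11.09 in the hub and 9.89 in control skin, Vim 9.24, 8.71 and 6.62, and Dcn 7.0, 7.55 and 8.65 in the same groups. Melanocyte markers (6 genes) summed to 9.50 in LE replicate 3, against 8.42 to 8.95 on all other arrays. Summed T cell markers (4 measured) were 9.10 to 9.51 at the LE, 10.24 to 10.32 in the hub and 10.24 to 10.46 in control skin. Of these, Thy1 averaged 8.85 at the LE, 10.09 in the hub and 10.14 in control skin, while Cd3e, Cd3g and Cd3d passed in no comparison. Summed follicle markers (7 genes) stood at 12.20 to 12.30 at the LE, 11.54 to 11.86 in the hub and 12.25 to 12.58 in control skin. Krt15 averaged 8.64, 9.86 and 11.05 in the same order, and Lgr6 6.72, 7.20 and 7.28. Plet1 went another way, at 11.90, 10.82 and 11.38, and the other follicle genes passed in no comparison. The part of these cells in the results below was not tested, beyond the values given without LE replicates 1 and 3. With both left out, which leaves 1 LE array that is assumed to vary like the other groups, 6 of the 10 genes were still called between LE and control (Cdkn1a, E2f7, E2f8, Btg2, Gas1 and Plagl1), where 10.2% of all genes were called, and 3 between LE and hub (Cdkn1a, E2f7 and Gas1), where 3.43% were called. The remaining LE array had a sum of 10.64 for Langerhans markers and of 11.63 for fibroblast markers. Cdkn1b lost its call against control, and Cdkn2b lost its call against the hub (-0.62, limma adjusted p = 0.431).

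Against control skin, 7 of the 10 genes were called at the LE (limma adjusted p under 0.05), 3 higher and 4 lower, where 22.8% of all 17097 genes were called (11.9% higher and 10.8% lower). In the hub, 4 of 10 were called against control skin, 2 higher and 2 lower, with 7.28% of all genes called (4.16% higher and 3.12% lower). Between LE and hub, 4 of 10 were called, 2 higher and 2 lower at the LE, with 10.6% of all genes called (5.39% higher and 5.23% lower). The arrays of both groups did not overlap for 8 of the 10 genes between LE and control, 6 between hub and control and 6 between LE and hub, beside 36.2%, 23.8% and 30% of all genes. The median log2 difference of the 10 genes was -0.12 for LE against control, -0.07 for hub against control and -0.22 for LE against hub, beside medians of 0.02, 0.03 and -0.005 over all genes. The brakes therefore did not move as a block, and each class is taken in turn. Because LE and hub were set against the same control arrays, these comparisons are not independent. In such sorted bulk samples, fewer cells that express a gene and less RNA per cell cannot be told apart.

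**Figure D1:**
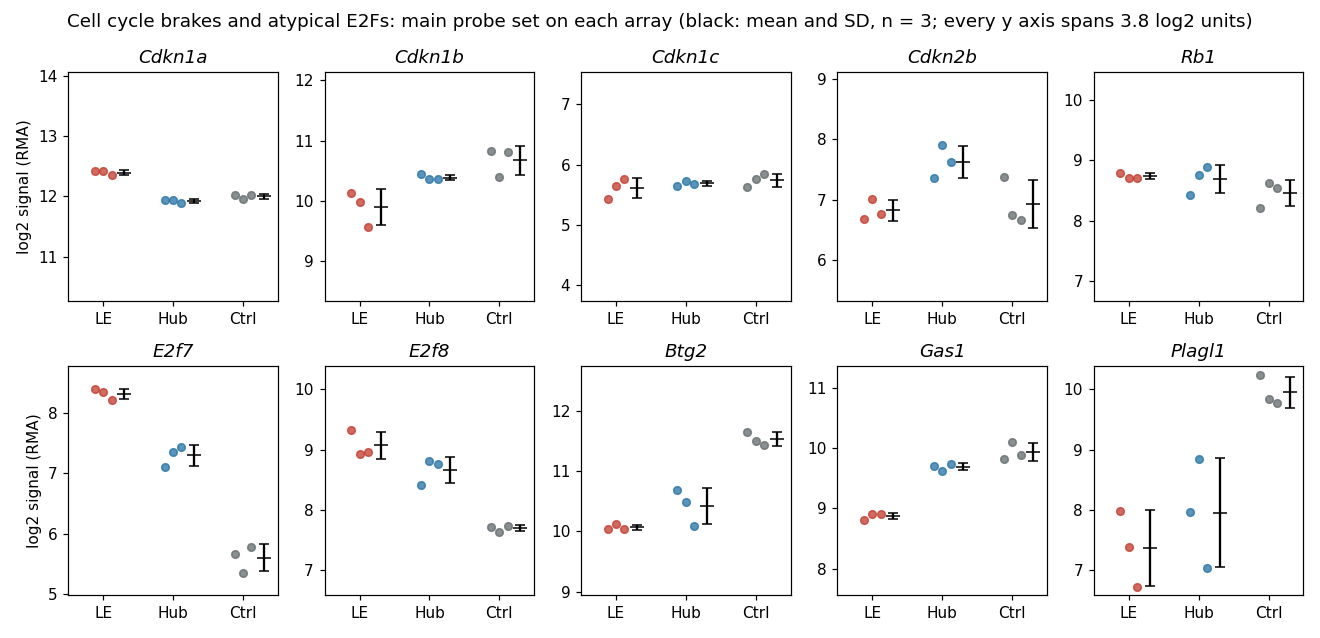
Log2 signal of the main probe set of each of the 10 genes on each array, with points for LE, hub and control arrays and a black mark with its bar for the mean and SD (n = 3). Every y axis spans the same range, centred on each gene. E2f7 separated all 3 groups, with 8.21 to 8.39 at the LE, 7.10 to 7.44 in the hub and 5.35 to 5.78 in control skin, whereas Cdkn1c stayed between 5.42 and 5.84 on every array.

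Against control skin, the atypical E2Fs had the largest rises of the 10 genes. E2f7 and E2f8 encode repressors with a pair of DNA-binding domains each, and both are themselves transcribed under E2F control. E2f7 (chr10:110745439-110787384, GRCm38.p6) had log2 signals of 8.39, 8.34 and 8.21 at the LE, 7.10, 7.35 and 7.44 in the hub, and 5.66, 5.35 and 5.78 in control skin. No array of a group overlapped another group, and the order was LE, then hub, then control. The measured log2 difference was 2.72 ± 0.13 for LE against control (SE; limma adjusted p = 8.84e-07, n = 3 arrays in each group), 1.70 ± 0.13 for hub against control (limma adjusted p = 0.000116) and 1.01 ± 0.13 for LE against hub (limma adjusted p = 0.000943). All 3 control arrays and 2 of the 3 hub arrays of E2f7 lay below the background percentile of 7.40. With such arrays raised to that percentile, E2f7 was 1.89-fold higher at the LE than in control skin and 1.87-fold higher than in the hub. These folds carry no interval, and no fold is given for hub against control.

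E2f8 (chr7:48866429-48882073) gave 9.33, 8.94 and 8.96 at the LE, 8.41, 8.81 and 8.76 in the hub, and 7.72, 7.64 and 7.73 in control skin. Every array from the wound lay above every control array, and LE and hub arrays lay next to each other without overlap. E2f8 was 2.60-fold higher at the LE (1.38 ± 0.13, limma adjusted p = 6.47e-05) and 1.95-fold higher in the hub (0.96 ± 0.13, limma adjusted p = 0.00278) than in control skin. Between LE and hub the main probe set differed by 0.41 ± 0.13 and did not pass (limma adjusted p = 0.0825, 95% interval 0.12 to 0.71). Its other probe set, in a fit over all 28898 probe sets of which 9.54% were called, averaged 9.10 at the LE, 8.44 in the hub and 7.88 in control skin and did pass between LE and hub (0.67 ± 0.10, limma adjusted p = 0.00315). With the mean of both probe sets the difference was 0.54 (limma adjusted p = 0.00318), so the call between the wound regions depends on the probe set.

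The region just before an annotated transcription start of each gene shows which sequences known from cell cycle promoters stand there. The 250 bases before the annotated start were taken from RefSeq (GRCm38.p6) and searched on both strands for the E2F letters TTTCCCGC, TTTGGCGC, TTTCGCGC and TTTGCCGC, the cell cycle homology element TTTGAA, the cyclic AMP response element TGACGTCA, the Sp1 letters GGGCGG and the forkhead letters TGTTTAC. Of the 10 genes, 8 matched, with 9 windows because Cdkn1a has 2 starts, and matches of different motifs did not overlap, while 2 pairs of Sp1 matches, in E2f7 and Btg2, overlapped each other. An E2F match was found for 2 of the 8, E2f7 and Plagl1, against 1.86% of all 32851 windows, and the element TTTGAA for 2, E2f8 and Cdkn2b, against 16%. Sp1 letters were found for 6 of the 8, against 32.7% of all windows, and forkhead letters for 0, against 3.17%. The start that RefSeq's window uses for E2f8 is base 48881596, which lies 477 bases inside the gene's annotated span, so that its window is not upstream of the whole gene. Start 2 of Cdkn1a lies 2790 bases inside the span of that gene, and the Sp1 matches of Cdkn1a were found only in the window before this start. The windows of the atypical E2Fs are printed because both were higher in wounded skin, with the E2F match of E2f7 and the TTTGAA match of E2f8 in capitals. Each match lies on the strand opposite to the printed one, where it reads TTTCCCGC or TTTGAA, so the printed capitals are GCGGGAAA and TTCAAA.
E2f7, chr10:110745189-110745438, plus strand: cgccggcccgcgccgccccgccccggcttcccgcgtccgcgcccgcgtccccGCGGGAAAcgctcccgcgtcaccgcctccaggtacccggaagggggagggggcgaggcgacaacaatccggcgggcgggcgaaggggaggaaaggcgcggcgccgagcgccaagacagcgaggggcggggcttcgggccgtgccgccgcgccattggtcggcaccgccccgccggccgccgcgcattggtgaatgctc
E2f8, chr7:48881597-48881846, minus strand: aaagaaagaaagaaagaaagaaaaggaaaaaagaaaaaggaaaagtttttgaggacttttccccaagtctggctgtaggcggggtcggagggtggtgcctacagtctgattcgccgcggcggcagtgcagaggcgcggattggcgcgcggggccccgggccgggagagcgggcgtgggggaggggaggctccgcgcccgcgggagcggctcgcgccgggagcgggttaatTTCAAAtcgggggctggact
The E2F match lies 198 bases before the start of E2f7 and the TTTGAA match lies 20 bases before the start used for E2f8. A match of letters is a description of the window and not a measured binding site.

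Among the CDK inhibitors, Cdkn1a rose at the LE against both hub and control skin, Cdkn1b fell at the LE against control skin, and Cdkn1c did not pass in any comparison. Cdkn1a encodes p21, a broad CDK inhibitor and classical target of p53. It was among the brightest genes of the arrays, above 98.9% of genes by mean signal. Cdkn1a (chr17:29090979-29100722) had log2 signals of 12.42, 12.42 and 12.35 at the LE, 11.94, 11.94 and 11.89 in the hub, and 12.03, 11.95 and 12.01 in control skin. All LE arrays lay above all others, and replicates lay close together. The gene was 1.39-fold higher at the LE than in the hub (0.47 ± 0.06, limma adjusted p = 0.00128) and 1.32-fold higher than in control skin (0.40 ± 0.06, limma adjusted p = 0.00134). Hub and control differed by -0.07 ± 0.06 and did not pass (limma adjusted p = 0.612, 95% interval -0.21 to 0.07). A second, dimmer probe set averaged 11.17 at the LE, 10.37 in the hub and 10.60 in control skin, and gave larger differences of 0.80 ± 0.08 for LE against hub (limma adjusted p = 0.000336) and 0.58 ± 0.08 for LE against control (limma adjusted p = 0.000697).

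Cdkn1b encodes p27, which holds cyclin E and CDK2 in check in resting cells. Cdkn1b (chr6:134920401-134925525) gave 10.14, 9.99 and 9.56 at the LE, 10.44, 10.36 and 10.36 in the hub, and 10.82, 10.40 and 10.80 in control skin. The LE arrays were the lowest of the 3 groups and the most spread, with replicate 3 farthest down. Cdkn1b fell by 0.78 ± 0.16 at the LE against control (1.72-fold lower, limma adjusted p = 0.00537). This call was lost when LE replicates 1 and 3, which carry the myeloid markers, were both left out (-0.69, limma adjusted p = 0.0517). LE and hub differed by -0.49 ± 0.16 without passing (limma adjusted p = 0.081, 95% interval -0.84 to -0.14), and hub and control by -0.29 ± 0.16 (limma adjusted p = 0.362, 95% interval -0.64 to 0.06). In its other probe set, Cdkn1b averaged 8.72 at the LE, 8.91 in the hub and 9.35 in control skin, and both wound regions passed against control, by -0.63 ± 0.11 at the LE (limma adjusted p = 0.00252) and -0.45 ± 0.11 in the hub (limma adjusted p = 0.0404).

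Cdkn2b encodes p15, an inhibitor of CDK4 and CDK6 that is induced by TGF-β. Cdkn2b (chr4:89306289-89311032) had log2 signals of 6.68, 7.01 and 6.77 at the LE, 7.36, 7.90 and 7.62 in the hub, and 7.38, 6.74 and 6.67 in control skin. The hub arrays lay above all LE arrays, and control replicate 1 lay within the hub range while the other control arrays lay with the LE. With LE arrays raised to the background percentile, which all 3 lay below, the gene was 1.17-fold lower at the LE than in the hub, a fold without an interval. The measured difference between LE and hub was -0.81 ± 0.20 (limma adjusted p = 0.0298). In limma fits that left out a single array, that call did not hold without LE replicate 1 (-0.74, adjusted p = 0.0996) or LE replicate 3 (-0.78, adjusted p = 0.097). It also did not hold when hub replicate 2 was dropped (-0.67, adjusted p = 0.108), nor when hub replicate 3 was dropped (-0.81, adjusted p = 0.0797). Hub and control differed by 0.70 ± 0.20 (limma adjusted p = 0.0683, 95% interval 0.25 to 1.14), and this passed without control replicate 1 (0.92, limma adjusted p = 0.0119). LE and control differed by -0.11 ± 0.20 (limma adjusted p = 0.761, 95% interval -0.55 to 0.34). Of the 9 arrays, only hub replicates 2 and 3 were above the background percentile of 7.40.

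Cdkn1c encodes p57, an imprinted CDK inhibitor, and Rb1 encodes the retinoblastoma protein itself. Cdkn1c (chr7:143458339-143461059) ranged from 5.42 to 5.75 at the LE, from 5.65 to 5.73 in the hub and from 5.63 to 5.84 in control skin, all below the background percentile, so its level could hardly be measured. Rb1 (chr14:73192858-73325951) gave 8.79, 8.70 and 8.71 at the LE, 8.42, 8.75 and 8.88 in the hub, and 8.20, 8.62 and 8.55 in control skin. The hub arrays of Rb1 spanned the LE range and overlapped those of control skin. Neither gene passed in any comparison, and the 95% interval of the LE against control difference was -0.35 to 0.08 for Cdkn1c and -0.03 to 0.58 for Rb1. The dimmer probe set of Rb1 averaged 5.52 at the LE, 5.65 in the hub and 5.65 in control skin and passed in none.

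**Figure D2:**
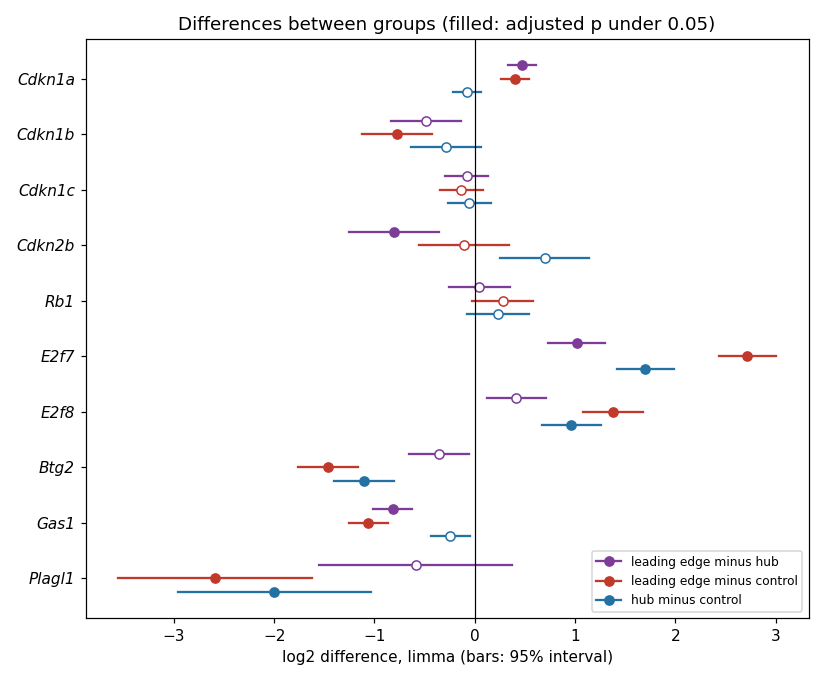
Log2 difference of each gene in LE against hub, LE against control and hub against control, with bars for the 95% interval of the limma fit and filled points for adjusted p under 0.05. E2f7 and E2f8 lie to the right of 0 in both comparisons with control, and Btg2 and Plagl1 lie to the left in both.

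Of the brakes that are not kinase inhibitors, Btg2, Gas1 and Plagl1 fell at the LE against control skin, and Btg2 and Plagl1 also fell in the hub. Btg2 encodes an antiproliferative adaptor that brings the CCR4-NOT deadenylase to mRNAs, and it is known as an immediate early gene and a p53 target. Btg2 (chr1:134074865-134079155) had log2 signals of 10.04, 10.12 and 10.05 at the LE, 10.68, 10.49 and 10.10 in the hub, and 11.65, 11.50 and 11.44 in control skin. All wound arrays lay below all control arrays, and hub replicate 3 lay within the LE range. Btg2 was 2.75-fold lower at the LE (-1.46 ± 0.13, limma adjusted p = 4.78e-05) and 2.16-fold lower in the hub (-1.11 ± 0.13, limma adjusted p = 0.00155) than in control skin. LE and hub differed by -0.35 ± 0.13 (limma adjusted p = 0.143, 95% interval -0.65 to -0.05), which passed without hub replicate 3 (-0.51, limma adjusted p = 0.0145). The other probe set of Btg2 averaged 9.72 at the LE, 10.07 in the hub and 11.26 in control skin, and was called lower in both comparisons with control, at -1.54 ± 0.14 for the LE (limma adjusted p = 5.65e-05) and -1.19 ± 0.14 for the hub (limma adjusted p = 0.00159). Over all probe sets, 21.7% were called for LE against control and 6.41% for hub against control. The window before the start of Btg2 holds the letters TGACGTCA, in capitals here, 166 bases before the start. They were found in 2 of the 8 matched genes, Btg2 and Cdkn2b, and in 1.55% of all windows. Cdkn2b was not called in either comparison with control. The sequence is shown because Btg2 was lower in wounded skin, and whether the letters bear on its level was not tested.
Btg2, chr1:134079156-134079405, minus strand: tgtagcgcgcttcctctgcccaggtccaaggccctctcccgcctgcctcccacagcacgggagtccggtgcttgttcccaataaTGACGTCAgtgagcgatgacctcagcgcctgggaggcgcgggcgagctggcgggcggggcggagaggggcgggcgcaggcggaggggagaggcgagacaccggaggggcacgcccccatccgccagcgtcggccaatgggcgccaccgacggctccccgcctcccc

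Gas1 encodes a protein anchored at the cell surface that was found as a growth arrest-specific gene and serves as a co-receptor for Hedgehog ligands. Gas1 (chr13:60174405-60177535) gave 8.81, 8.90 and 8.91 at the LE, 9.71, 9.62 and 9.74 in the hub, and 9.81, 10.10 and 9.89 in control skin. LE arrays lay well below the others, and hub arrays lay just below control arrays without overlap. Gas1 was 1.76-fold lower at the LE than in the hub (-0.82 ± 0.09, limma adjusted p = 0.000384) and 2.09-fold lower than in control skin (-1.06 ± 0.09, limma adjusted p = 2.32e-05). Hub and control differed by -0.24 ± 0.09 and did not pass (limma adjusted p = 0.141, 95% interval -0.44 to -0.05). Among the genes that were lower at the LE than in the hub, Gas1 kept its call under every alternative that used the limma threshold alone, with adjusted p of at most 0.0274.

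Plagl1 encodes an imprinted zinc finger transcription factor, also called Zac1, that can arrest the cell cycle. Plagl1 (chr10:13090832-13131694) had log2 signals of 7.98, 7.38 and 6.72 at the LE, 7.97, 8.84 and 7.04 in the hub, and 10.24, 9.84 and 9.77 in control skin. Control arrays lay above all wound arrays, while LE and hub arrays overlapped and were the most spread of the 10 genes. The measured log2 difference from control skin was -2.59 ± 0.43 at the LE (limma adjusted p = 0.00188) and -2.00 ± 0.43 in the hub (limma adjusted p = 0.0223). LE replicates 2 and 3 and hub replicate 3 lay below the background percentile of 7.40. With these raised to it, Plagl1 was 5.13-fold lower at the LE and 3.68-fold lower in the hub than in control skin, and the measured folds of 6.02 and 4.00 are larger. In limma fits that left out a single array, the call in the hub was lost when hub replicate 1 was dropped (-2.01, adjusted p = 0.0614), when hub replicate 3 was dropped (-1.54, adjusted p = 0.0562) and when control replicate 1 was dropped (-1.85, adjusted p = 0.0642). LE and hub differed by -0.59 ± 0.43 (limma adjusted p = 0.505, 95% interval -1.55 to 0.37). The main probe set is of a kind whose probes may match other transcripts. The other one was near background, with means of 5.03 at the LE, 5.07 in the hub and 5.89 in control skin, yet also passed in both comparisons with control, by -0.87 ± 0.07 at the LE (limma adjusted p = 3.33e-05) and -0.83 ± 0.07 in the hub (limma adjusted p = 0.000389).

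**Figure D3:**
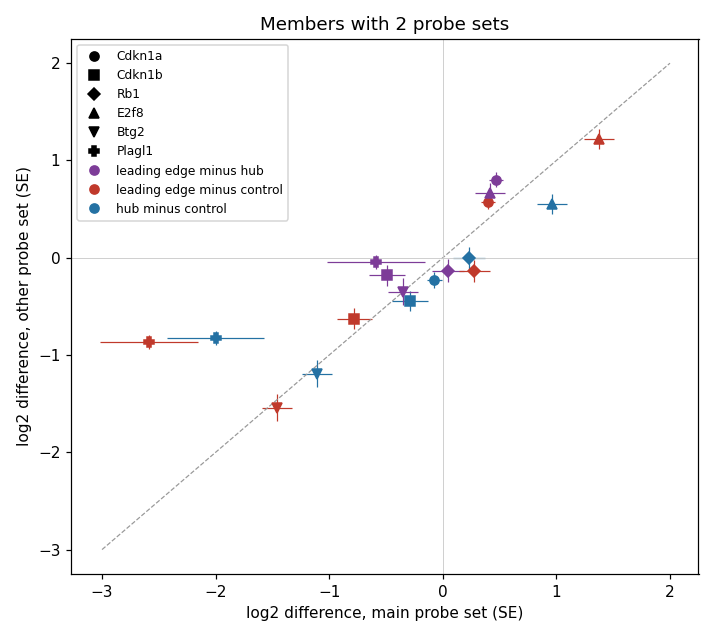
Log2 difference of the other probe set (y) against that of the main probe set (x) for the 6 genes that have 2, coloured by comparison, with SE as bars and a dashed line of equality. The main and other probe sets of E2f8 gave 1.38 and 1.22 for LE against control, those of Plagl1 gave -2.59 and -0.87, and those of Rb1 gave 0.28 and -0.14.

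The partners of these brakes were described from lists of pathway genes, and each count is read beside the share of all genes called. These shares were 11.9% higher and 10.8% lower for LE against control, 4.16% and 3.12% between hub and control, and 5.39% and 5.23% between LE and hub. Among 8 other E2F and DP genes, 2 were higher and 1 lower at the LE than in control skin (median log2 difference 0.01), 1 was higher and 0 lower in the hub than in control skin (median 0.16), and 0 were higher and 2 lower at the LE than in the hub (median -0.11). E2f4, a repressor of quiescent cells, was higher at the LE than in control skin by 0.39 ± 0.07 (limma adjusted p = 0.00222). Tfdp1, a DP partner, was higher than in control skin by 0.40 ± 0.07 in the hub (limma adjusted p = 0.0121) and by 0.38 ± 0.07 at the LE (limma adjusted p = 0.00481). E2f2, an activator, differed by -0.74 ± 0.18 between LE and control (limma adjusted p = 0.0141) and by -0.90 ± 0.18 between LE and hub (limma adjusted p = 0.0101), and Tfdp2 by -0.65 ± 0.13 between LE and hub (limma adjusted p = 0.0111). The activator E2f1 did not pass in any comparison, with -0.04 for LE against control and 0.10 for hub against control. Of 6 other CDK inhibitors and pocket proteins, 1 was higher and 2 lower at the LE than in control skin (median -0.05), with Rbl2, which encodes the pocket protein p130, at -0.66 ± 0.14 (limma adjusted p = 0.00666), and none was called between LE and hub or between hub and control. Of 8 measured G1 cyclins and kinases, 2 were higher and 1 lower at the LE than in control skin, 1 was higher and 0 lower at the LE than in the hub, and none was called between hub and control. Cdk6 was higher at the LE than in the hub (0.37 ± 0.08, limma adjusted p = 0.0127) and than in control skin (0.47 ± 0.08, limma adjusted p = 0.00158). Of 6 measured genes for the degradation of p27, 1 was called in each comparison with control and none between LE and hub. This was Cks1b, a cofactor of its ubiquitin ligase, which was higher at the LE (0.58 ± 0.07, limma adjusted p = 0.000315) and in the hub (0.41 ± 0.07, limma adjusted p = 0.00798) than in control skin.

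Of 16 proliferation genes, 7 were higher and 0 lower at the LE (median 0.26), and 6 were higher and 0 lower in the hub (median 0.33), against control skin, with 11.9% and 4.16% of all genes called higher. The other 9 at the LE and 10 in the hub did not pass, Pcna among them at -0.02 for LE against control. Rrm2, which encodes a subunit of ribonucleotide reductase, was higher by 1.18 at the LE (limma adjusted p = 1.82e-05) and by 0.83 in the hub (limma adjusted p = 0.000982). Between LE and hub, 1 was higher and 1 lower, and Mki67 did not pass in any comparison, at -0.04 for LE against hub and 0.11 for hub against control. The mean log2 signal of the list was 9.77 to 9.96 at the LE, 9.78 to 9.90 in the hub and 9.44 to 9.55 in control skin, so LE and hub overlapped here while E2f7 separated them.

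Genes linked to p53 did not move in 1 direction with Cdkn1a. Of 18 measured, 7 were higher and 4 lower at the LE than in control skin (median 0.01, beside 11.9% and 10.8% of all genes), 2 were higher and 1 lower in the hub than in control skin (beside 4.16% and 3.12%), and 4 were higher and 3 lower at the LE than in the hub (beside 5.39% and 5.23%). Pmaip1, which encodes the cell death protein Noxa, was higher at the LE than in the hub by 0.83 ± 0.08 (limma adjusted p = 0.000206), and Sesn2, a stress-induced sestrin, by 1.03 ± 0.16 (limma adjusted p = 0.00315). Trp53inp1 and Sesn1, also p53 targets, were lower there, by -1.44 ± 0.17 (limma adjusted p = 0.000639) and -1.11 ± 0.15 (limma adjusted p = 0.00158). Of 8 FOXO-linked genes, 0 were higher and 4 lower at the LE than in control skin (median -0.47), 0 and 2 in the hub than in control skin (median -0.35), and 0 and 2 at the LE than in the hub (median -0.10), beside 10.8%, 3.12% and 5.23% of all genes called lower. Txnip, which restrains glucose uptake, differed most between LE and control, by -1.82 ± 0.07 (limma adjusted p = 5.08e-07).

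Of 9 relatives and partners of Btg2 (BTG, TOB and CCR4-NOT genes), 0 were higher and 6 lower at the LE than in control skin (median -0.53), 0 and 2 in the hub than in control skin (median -0.16), and 0 and 2 at the LE than in the hub (median -0.04), beside 10.8%, 3.12% and 5.23% of all genes called lower. The other 3 differed by 0.02 (Btg4), 0.19 (Cnot7) and 0.23 (Cnot8) between LE and control and did not pass. Tob1, an antiproliferative protein of the same family, was lower by -1.40 ± 0.11 at the LE (limma adjusted p = 1.80e-05) and by -1.22 ± 0.11 in the hub (limma adjusted p = 0.000339) against control skin. Of 11 measured immediate early genes, 0 were higher and 9 lower at the LE, and 0 and 10 in the hub, against control skin, with 10.8% and 3.12% of all genes called lower. Nr4a1, an orphan nuclear receptor, was lower by -2.53 at the LE (limma adjusted p = 1.14e-05) and by -1.77 in the hub (limma adjusted p = 0.000689). The mean log2 signal of the list was 11.13, 11.01 and 11.06 at the LE, 11.28, 11.26 and 11.06 in the hub, and 11.95, 11.89 and 11.90 in control skin. Hub replicate 3 was the lowest hub array for this mean and for Btg2. Immediate early genes respond to the handling of tissue, and the part of this in Btg2 was not tested.

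**Figure D4:**
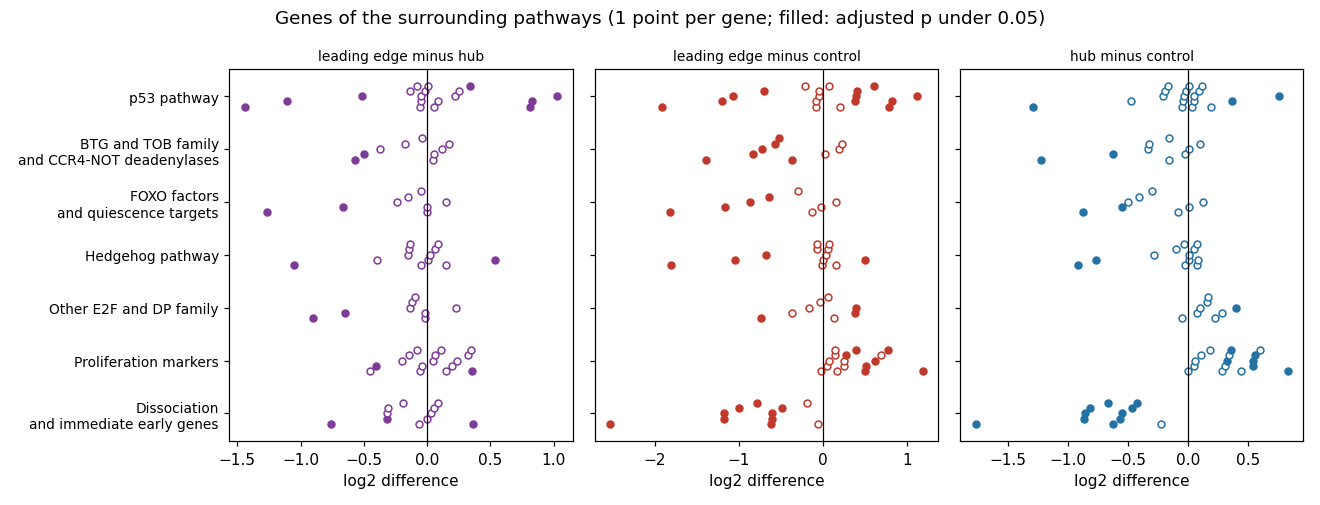
Log2 difference of each gene in 7 lists of pathway genes, with 1 point per gene, filled where the adjusted p is under 0.05, in panels for LE against hub, LE against control and hub against control. Immediate early genes were called only lower against control (9 at the LE and 10 in the hub), and proliferation genes only higher (7 and 6).

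Of 12 measured Hedgehog genes, to which Gas1 belongs by function, 1 was higher and 3 lower at the LE than in control skin, 1 was higher and 1 lower than in the hub, and 2 were lower in the hub than in control skin, with medians of -0.01, -0.02 and -0.01, beside 10.8%, 5.23% and 3.12% of all genes called lower. Cdon, a co-receptor like Gas1, was lower at the LE than in the hub by -1.05 ± 0.14 (limma adjusted p = 0.00127) and than in control skin by -1.81 ± 0.14 (limma adjusted p = 1.61e-05). Boc, the other co-receptor of this kind, was lower at the LE than in control skin (-0.68 ± 0.12, limma adjusted p = 0.00238), and Gli2, a transcription factor of the pathway, was higher at the LE than in the hub (0.54 ± 0.08, limma adjusted p = 0.00207). Hhip, which is not one of these co-receptors, was lower than in control skin at the LE (-1.05 ± 0.15, limma adjusted p = 0.000928) and in the hub (-0.91 ± 0.15, limma adjusted p = 0.00731). Among 10 measured imprinted genes, the class of Plagl1 and Cdkn1c, 1 was higher and 1 lower at the LE than in control skin (median 0.10, beside 11.9% and 10.8% of all genes) and none was called in the other comparisons.

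**Figure D5:**
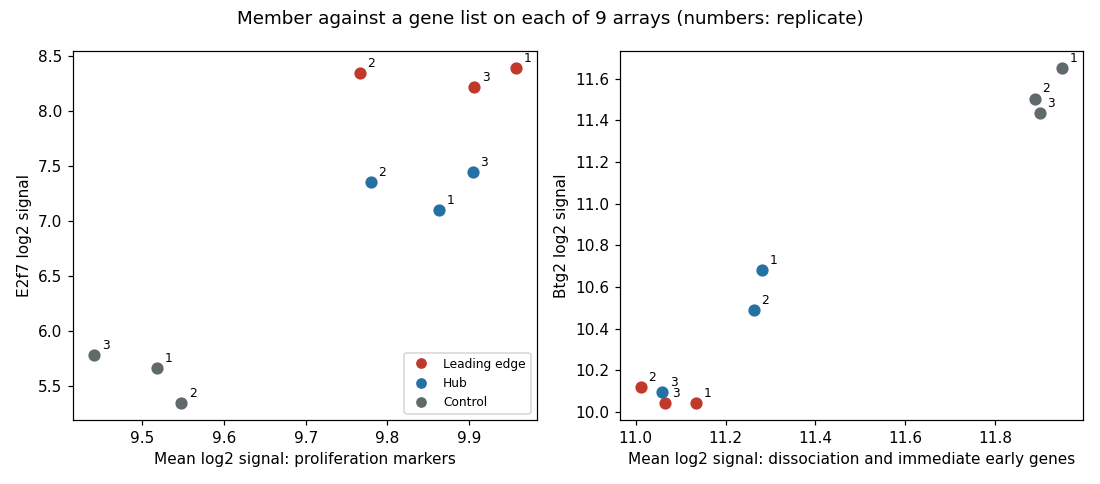
Log2 signal of E2f7 against the mean log2 signal of proliferation genes, and of Btg2 against that of immediate early genes, with numbered points for LE, hub and control arrays. Wound arrays lie apart from control arrays on both axes, at 9.77 to 9.96 against 9.44 to 9.55 for proliferation genes and at 11.01 to 11.28 against 11.89 to 11.95 for immediate early genes.

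For each gene called in at least 2 comparisons, the most similar profiles over the 9 arrays were found among the brighter genes by the root mean square distance of mean-centred log2 signals. Nearest to Btg2 were Id4 (0.0981), Atf3 (0.155) and Jun (0.165), of which Atf3 and Jun belong to the immediate early genes. Nearest to E2f7 were Csta1 (0.200), Lgi2 (0.211) and Fxyd5 (0.211), and nearest to E2f8 were Tmem167 (0.116), 2610001J05Rik (0.123) and Tspan3 (0.130). Nearest to Cdkn1a were Macf1 (0.0427), Cbr2 (0.0441) and Socs6 (0.0447), and nearest to Gas1 were Khk (0.0750), Plxdc1 (0.0825) and Cep85 (0.0978). Plagl1 had no near neighbour on this scale, with Timp3 (0.399), Col4a5 (0.442) and Nr4a1 (0.452) the closest. The distances describe these arrays and carry no test.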

How the data were processed

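RNA of 300 sorted cells per sample was amplified as cDNA by the authors and hybridised to Affymetrix mouse genome PM strip arrays. The authors deposited RMA values on a log2 scale, with the RMA release not given in the sources used here. RMA makes arrays share 1 distribution, so a change of total RNA cannot be measured, and arrays carry no count or depth, so their number limits the precision. The platform annotation named the probe sets (45141 in all, 104 controls, 28898 with 1 symbol, 551 with several and 15588 with none).

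One linear model with a mean for each group was fitted to all 9 arrays (limma 3.58.1, R 4.3.3), two-sided, with Benjamini-Hochberg adjustment over 17097 genes. Genes with an adjusted p under 0.05 were called. The model was tested on simulated data with independent normal scatter, which hold neither the differences in markers of other cells nor any pairing of arrays. The 10 genes and all lists were chosen with earlier results of these data known. The text names all 10 genes, up to 4 called genes of each list described, and the 3 nearest profiles of genes called in at least 2 comparisons. The called genes named are not always those with the largest difference. A list for the MuvB core of the DREAM complex was also drawn up and is not described. E2f1, Mki67, Pcna, Btg4, Cnot7, Cnot8 and the marker genes named beside their lists were added after their values were seen. For groups with arrays below the 95th percentile of background, folds were also given with those arrays raised to it. Alternatives left out each array or dim genes, averaged the probe sets of a gene, used only the 6 arrays compared, repeated quantile normalization, centred arrays on their median, added array weights, a mean-variance trend or a replicate block, or applied 2 fold rules. Leaving out LE replicates 1 and 3 together was chosen after seeing the data.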

Additional observations from a re-analysis of the deposited data

How the results depend on the processing

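Of 524 recomputed differences of single genes, 503 kept direction and side of the threshold, 10 lost the call, 6 gained one and 5 changed sign. Leaving out each array in turn gave 3 to 4 called genes of 10 between LE and hub, 7 between LE and control and 3 to 4 between hub and control. With a 2-fold minimum 1 gene was called between LE and hub. The fold rule of the methods, above 2 in each same-numbered pair, gave 0 for LE against hub, 4 for LE against control and 1 for hub against control. With LE replicates 1 and 3 left out, LE against hub had 3 calls and LE against control had 6, while calls over all genes were 587 instead of 1816 and 1751 instead of 3891.

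Sign changes concerned only small differences. Cdkn1c between LE and hub was 0.013 without LE replicate 1 and ranged from -0.15 to 0.013 over single arrays left out. Rb1 between LE and hub was -0.043 with the mean of its probe sets and -0.085 without hub replicate 1, with a range of -0.085 to 0.14. Cdkn2b between LE and control ranged from -0.24 to 0.12, the highest without control replicate 1, and was 0.082 with LE replicates 1 and 3 left out. Cdkn1b between LE and hub was called with array weights (limma adjusted p = 0.0362) and after the dim filter (0.0497), and Cdkn2b between hub and control with a trend (0.0498). The causes were not tested.

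Whether replicate numbers pair the arrays is not stated, and 3 arrays in each group are too few to settle it. Deviations of same-numbered arrays of different groups correlated at -0.178 to 0.0815 (9 pairs), against -0.146 to 0.118 for other pairs (18 pairs). With the replicate block, 3 genes were called between LE and hub, 7 between LE and control and 4 between hub and control. Cdkn2b lost its call between LE and hub (limma adjusted p = 0.0559). Over all genes, hub against control had 1244 calls, 766 with only the 6 arrays compared, 774 without hub replicate 2 and 699 without hub replicate 3. The filter on dim genes, at a background percentile of 7.40, kept 8 of the 10 genes, without Cdkn1c and Cdkn2b, whose signals limit what can be said of them.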
